A study of Gasterosteus aculeatus with 60 samples.

Results

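EGR4 (1 of 2), ENSGACG00000000325, was followed here through the brain of male threespined sticklebacks (Gasterosteus aculeatus) after a territorial challenge. It is 1 gene of the 17536 in the count table, and was chosen by its values in challenged and control males in telencephalon at 30 minutes. The values of that comparison are therefore given as a description, with no test. RNA-seq of poly-A RNA was carried out on 60 libraries from 30 adult males, with telencephalon and diencephalon taken from each fish. Challenged males met an intruder, another male that was not kin and not as large, behind the glass of a flask, and the flask given to control males held no fish. Both kinds of male were wild-caught, housed singly with nesting material and holding a territory. The flask was taken out again after a short exposure, and fish were sampled 30, 60 or 120 minutes from the moment it had gone in, so each of the 12 groups of region, time and treatment held 5 fish.

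EGR genes encode zinc-finger transcription factors of the immediate-early class. In mammalian neurons, such genes are transcribed within minutes of synaptic activity, without the need for new protein, and their transcripts are short-lived. EGR proteins bind GC-rich sites and set the transcription of later genes, and FOS and JUN proteins pair as the AP-1 factor. NPAS4 is an activity-dependent factor of neurons, and NR4A proteins are orphan nuclear receptors that are induced in the same way. Upstream of them stand factors already present in the cell, such as SRF, ELK, CREB and MEF2. The annotation holds a second copy, EGR4 (2 of 2), and also egr1, egr2a, egr2b and egr3.

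EGR4 (1 of 2) lies on the forward strand of scaffold_131, from 38860 to 39828 in Ensembl release 75, a span of 969 bases on a scaffold that is not placed on a chromosome. EGR4 (2 of 2) lies on groupIX from 8457238 to 8457516 and spans 279 bases. Reads assigned to several genes were dropped by the authors, and how reads common to both copies were treated is not stated, so the counts of the copies are uncertain to that extent. Library totals ranged from 17705327 to 55299804 counts. EGR4 received 123 to 1664 counts per library, for which counting alone gives an error of 9.02% at the lowest count and 2.45% at the highest. Levels are given as cpm, counts scaled to the size of the library, with sizes corrected over the 60 libraries by trimmed mean of M-values.

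Region labels were set against marker genes. All 6 telencephalon markers, among them tbr1b and emx3, were higher in telencephalon, and 4 of 5 diencephalon markers were higher in diencephalon. The exception was nkx2.1, which was higher in telencephalon and is also known from the ventral forebrain. The summed level of 6 pituitary hormone genes ranged from 0.244 to 12.2 cpm across telencephalon libraries and from 1.90 to 6080 cpm across diencephalon libraries. That of 6 photoreceptor genes ranged from 0.912 to 540 cpm across telencephalon libraries and from 2.4 to 1180 cpm across diencephalon libraries. None of the markers in these lists was at 0 throughout a region. In bulk tissue, fewer cells with a transcript and less transcript per cell cannot be told apart.

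In telencephalon at 30 minutes, EGR4 stood at 29.4, 37.2, 31.5, 25.5 and 39.5 cpm in challenged males, against 15.6, 17.2, 15.0, 21.9 and 19.2 cpm in control males. The groups did not overlap, and the lowest challenged fish was above the highest control fish. EGR4 was chosen on this comparison, and the share of all genes without overlap was not computed, so the separation is a description only. The means were 32.6 ± 5.71 cpm in challenged males and 17.8 ± 2.80 cpm in control males (SD, n = 5 each), a fold of 1.83 or 0.87 on the log2 scale. In these libraries the summed telencephalon markers ranged from 283 to 764 cpm in challenged males and from 556 to 733 cpm in control males, with medians of 631 and 609 cpm. The summed photoreceptor markers ranged from 1.12 to 15.4 cpm in challenged males and from 0.912 to 8.95 cpm in control males, and the part of either in the EGR4 values was not tested. Summed microglia markers had medians of 39.4 cpm in challenged males and 40.2 cpm in control males.

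**Figure D1:**
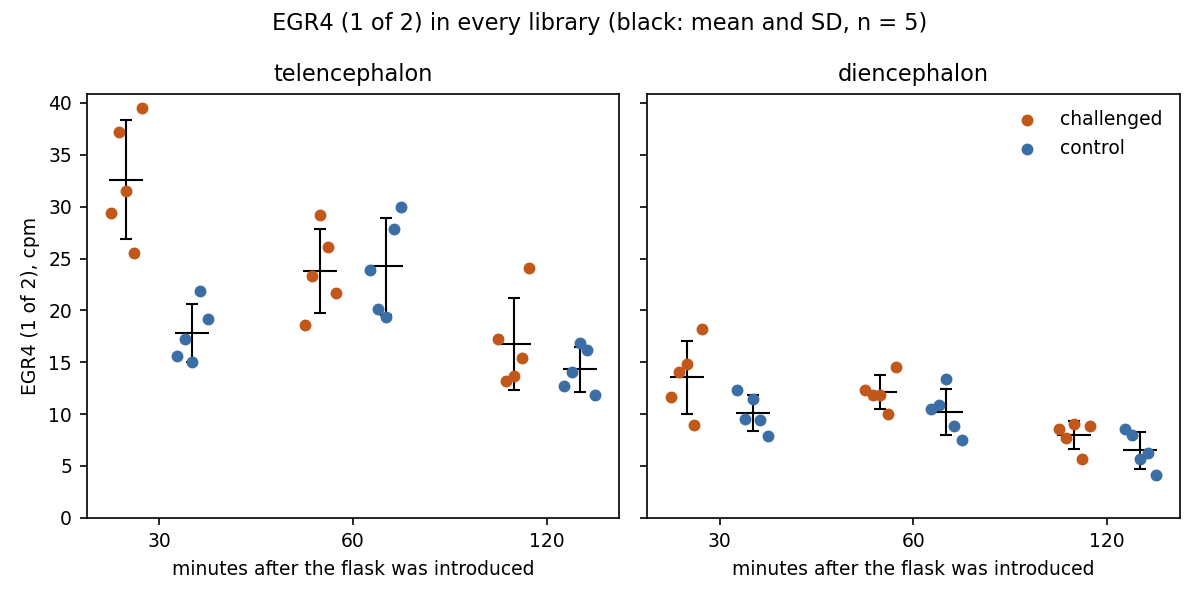
EGR4 (1 of 2) in cpm (vertical axis, from 0) against minutes after the flask was introduced, in telencephalon (left) and diencephalon (right). Each point is 1 library, orange for challenged and blue for control, with the mean and SD of 5 fish in black. The challenged telencephalon libraries at 30 minutes sit between 25.5 and 39.5 cpm, above the controls of that time. At every other region and time, challenged and control libraries overlap.

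In telencephalon, the later times showed no such separation. At 60 minutes EGR4 stood at 18.6, 23.3, 29.2, 26.1 and 21.7 cpm in challenged males, against 23.9, 20.2, 19.3, 27.9 and 30.0 cpm in control males. The groups overlapped almost entirely, and the log2 fold change was -0.04 ± 0.16 (SE; edgeR quasi-likelihood test, adjusted p = 0.991). At 120 minutes it stood at 17.3, 13.2, 13.6, 15.4 and 24.1 cpm in challenged males, against 12.7, 14.1, 16.9, 16.2 and 11.9 cpm in control males. The groups overlapped, and the fold of 0.22 ± 0.16 did not pass (edgeR, adjusted p = 0.866). Fish 29 was the highest of the challenged fish, and without it the fold was 0.053.

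In diencephalon, the mean of EGR4 was higher in challenged males at each time, but the groups overlapped and no time passed the test. At 30 minutes the levels were 11.6, 14.1, 14.8, 8.95 and 18.2 cpm in challenged males, against 12.3, 9.55, 11.4, 9.41 and 7.93 cpm in control males. Fish 18, 23 and 38 of the challenged group were above every control fish, and fish 34 was below 4 of the 5 control fish. The log2 fold change was 0.42 ± 0.19 (SE; edgeR quasi-likelihood test, adjusted p = 0.722 over all genes and comparisons). Before adjustment the edgeR value was 0.0363. The fish at 30 minutes are also those whose telencephalon values chose EGR4, so tests at this time are not a separate check.

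At 60 minutes the diencephalon levels were 12.3, 11.8, 11.9, 9.98 and 14.5 cpm in challenged males, against 10.5, 10.9, 13.4, 8.83 and 7.52 cpm in control males. At 120 minutes they were 8.59, 7.73, 9.07, 5.68 and 8.83 cpm in challenged males, against 8.54, 8.03, 5.68, 6.21 and 4.13 cpm in control males. The groups overlapped at both times, with 4 of 5 challenged fish above the control median at each. The folds were 0.24 ± 0.19 and 0.29 ± 0.19 on the log2 scale (edgeR, adjusted p = 0.883 and 0.846). The library index is the barcode of a library, read from the study's mapping statistics, with 8 groups. The sample labels do not hold it, and whether it marks a batch is not stated. The fold at 60 minutes was 0.074 with the library index in the model and 0.16 without fish 35, and that at 120 minutes was 0.17 without fish 32. Two-sided exact permutation tests of 5 fish against 5, whose smallest possible p is 0.00794, gave 0.103 at 30 minutes, 0.143 at 60 minutes and 0.198 at 120 minutes. Across the 6 comparisons, the edgeR quasi-likelihood test called 0 genes at an adjusted p under 0.1 (percent called 0 in each). At an unadjusted p under 0.05, 3546 gene results were higher and 3412 lower in challenged males. The higher share ran from 1.44% (diencephalon, 30 minutes) to 7.11% (telencephalon, 60 minutes) of the genes tested. The lower share ran from 1.48% (telencephalon, 120 minutes) to 6.61% (diencephalon, 60 minutes). A likelihood ratio test with tagwise dispersions called 35 and DESeq2 called 256. The paper used an edgeR glm with tagwise dispersions and reported genes that differed at each time. The count of 0 is thus that of the quasi-likelihood test, which was used here in its place.

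Other genes of the immediate-early class were then described beside EGR4. A list of 19 immediate-early genes took its names from a table of transcription factors. The paper predicted the factors and targets of that table from its own expression data, so these names are not independent of the values here. Another 8 had a name only because the study listed them as different, so the direction of the 8 is not independent evidence. The paper also gives cebpb, a gene named in the factor table, as differentially expressed after a challenge in diencephalon. EGR4 (2 of 2) was listed as different as well. The direction of these genes is therefore not independent evidence either. In telencephalon at 30 minutes the 19 were read in the same fish and comparison that chose EGR4. Some of them, such as egr1 and egr2a, were also correlated with EGR4 across fish (below). Their values there are thus a description and not independent evidence. In telencephalon at 30 minutes, 4 of the 19 were higher in challenged males at an unadjusted p under 0.05 and 0 were lower. Over all genes 2.02% were higher and 2.12% lower by that rule. The 4 were EGR4 (2 of 2), egr1, egr3 and nr4a1, an orphan receptor gene. The median log2 fold of the 19 was 0.04, with 12 of 19 above 0, beside 0.00 over all 17247 genes tested, and none of the 19 passed after adjustment. With 1 fish left out, between 1 (without fish 12, 17 or 38) and 5 (without fish 30) of the 19 had an unadjusted p under 0.05.

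EGR4 (2 of 2), the second copy, averaged 17.6 ± 3.63 cpm in challenged males and 13.0 ± 1.48 cpm in control males in telencephalon at 30 minutes (SD, n = 5 each), a log2 fold change of 0.43 ± 0.12 (SE; edgeR, adjusted p = 0.534). It lay above the control median in 5 of 5 challenged fish, although the groups overlapped. The activity-dependent egr1 averaged 146 ± 15.2 cpm in challenged males and 123 ± 19.8 cpm in control males at that time, a log2 fold change of 0.25 ± 0.12 (edgeR, adjusted p = 0.744). For egr3 the fold was 0.27 ± 0.13 and for nr4a1 it was 0.65 ± 0.28 (edgeR, adjusted p = 0.738 and 0.687).

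Among the 8 genes named through their difference, 5 were higher and 1 was lower at an unadjusted p under 0.05 in telencephalon at 30 minutes, with a median log2 fold of 0.42. fos, the AP-1 partner of JUN proteins, stood at 48.8, 63.5, 46.3, 40.7 and 57.9 cpm in challenged males, against 30.6, 32.1, 26.0, 33.5 and 28.1 cpm in control males. These groups did not overlap, and the fold was 0.77 ± 0.16 (edgeR, adjusted p = 0.534). The share of all genes whose groups did not overlap was not computed, so the lack of overlap in fos and egr2b is a description only. npas4a averaged 50.3 ± 10.2 cpm in challenged males and 33.9 ± 4.69 cpm in control males (SD, n = 5 each), a fold of 0.57 ± 0.21 with overlap of the groups (edgeR, adjusted p = 0.634).

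egr2b had the highest log2 fold of the EGR genes at that time, 1.85 ± 0.42, at 4.11 ± 1.92 cpm in challenged males and 1.13 ± 0.240 cpm in control males, with no overlap (edgeR, adjusted p = 0.534). junba and jund, which encode AP-1 subunits, had folds of 0.44 ± 0.17 and 0.39 ± 0.10. The stress-response gene gadd45g was the 1 lower gene, at -0.52 ± 0.21. Of the 8 upstream factors, only mef2cb passed an unadjusted p of 0.05, at -0.20 ± 0.09, and the median of the 8 was -0.03.

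**Figure D2:**
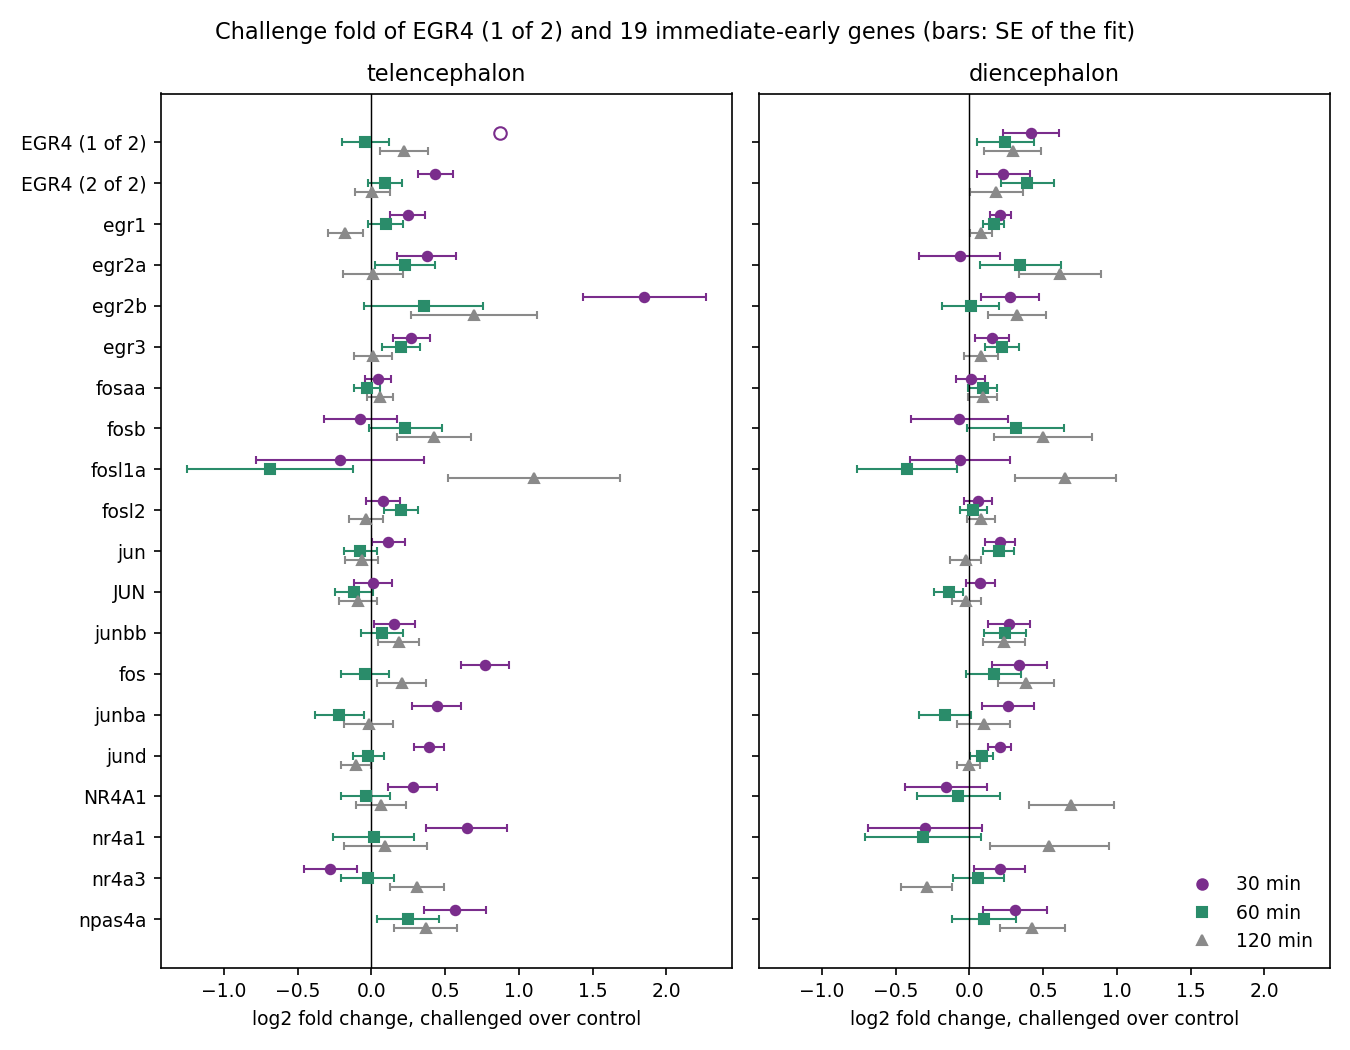
Log2 fold change of challenged over control (horizontal axis) for EGR4 (1 of 2) and 19 other genes, in telencephalon (left) and diencephalon (right). The genes are those of the EGR, AP-1 and NR4A groups with npas4a. They are not the list of 19 of the text, since fos, egr2b, junba, jund and npas4a were named through their difference. Other inducible genes are not drawn, among them gadd45g, which was lower in telencephalon at 30 minutes. Purple circles are 30 minutes, green squares 60 and grey triangles 120, bars are the SE of the fit, and the open circle marks the value that chose EGR4. At 30 minutes in telencephalon EGR4 stands at 0.87, fos at 0.77 and egr2b at 1.85, and no gene passed after adjustment.

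In diencephalon, the immediate-early genes with small p-values differed from one time to the next. At 30 minutes only egr1 of the 19 had an unadjusted p under 0.05, with 81.1 ± 8.17 cpm in challenged males and 70.3 ± 3.42 cpm in control males, beside 1.44% of all genes higher and 1.84% lower. At 60 minutes EGR4 (2 of 2), egr1 and NFIL3, a leucine-zipper repressor, were on the higher side and cebpb and klf4 on the lower, beside 3.85% and 6.61% of all genes. At 120 minutes NR4A1, egr2a and cebpd were on the higher side, with log2 folds of 0.69, 0.62 and 0.78, and 0 were lower, beside 3.54% and 2.38% of all genes. In telencephalon 0 of the 19 were on the higher side and 2, cebpb and cebpd, on the lower at 60 minutes, beside 7.11% and 5.22% of all genes. At 120 minutes 1, cebpb, was on the higher side and 0 on the lower, beside 2.5% and 1.48%. In these counts cebpb and EGR4 (2 of 2), which were also listed as different, are a description and not independent evidence. The counts moved with single fish. With 1 fish left out, the number of the 19 at an unadjusted p under 0.05 in either direction ran in diencephalon from 1 to 3 (3 without fish 30 or 34) at 30 minutes, from 1 (without fish 21) to 7 (without fish 15) at 60 minutes and from 0 (without fish 20 or 29) to 4 at 120 minutes. In telencephalon it ran from 1 (without fish 15, 21 or 27) to 3 at 60 minutes and from 0 (without fish 2, 20 or 32) to 4 (without fish 13) at 120 minutes. In diencephalon the median log2 fold of the 19 was 0.01 at 30 minutes, 0.06 at 60 minutes and 0.18 at 120 minutes, beside 0.00, -0.02 and 0.00 over all genes.

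EGR4 was higher in telencephalon than in diencephalon in every fish. Over all 30 fish the ratio within a fish ranged from 1.27 to 3.99, with a median of 2.22, and this count includes the 10 fish at 30 minutes. At 60 and 120 minutes alone, the times not used to choose the gene, the log2 difference of telencephalon over diencephalon was 1.11 ± 0.09 (SE; edgeR quasi-likelihood test, adjusted p = 1.37e-15). That fit took both libraries of a fish as independent. A fit with fish as replicate block, which keeps the pairing, gave 1.11 (edgeR quasi-likelihood test, adjusted p = 9.09e-12). Region differences were common, since 35.1% of genes were called higher and 33% lower in telencephalon. Of the 19 immediate-early genes, 13 were called higher in telencephalon and 4 lower, with a median log2 difference of 0.72.

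The other EGR genes differed among themselves in region. EGR4 (2 of 2), egr1 and egr3 were higher in telencephalon by 0.85 ± 0.08, 0.73 ± 0.05 and 0.72 ± 0.06 on the log2 scale, and egr2a by 2.51 ± 0.13. egr2b was lower in telencephalon, at -1.29 ± 0.16 (edgeR, adjusted p = 8.99e-10). fos and npas4a were higher in telencephalon by 0.46 ± 0.09 and 0.52 ± 0.11. Among the upstream factors 7 of 8 were called higher in telencephalon, and MEF2A was lower at -0.87 ± 0.07.

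Ordered by mean, the 12 groups ran from challenged telencephalon at 30 minutes, at 32.6 cpm, to control diencephalon at 120 minutes, at 6.52 ± 1.80 cpm (SD, n = 5). The 6 telencephalon groups took the first 6 places. Challenged and control telencephalon at 60 minutes came next to each other, at 23.8 ± 4.05 and 24.3 ± 4.67 cpm, and each group overlapped its neighbour in the order. The lowest telencephalon group, control at 120 minutes, averaged 14.3 ± 2.16 cpm, and the highest diencephalon group, challenged at 30 minutes, averaged 13.5 ± 3.48 cpm.

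In each of the 4 series of 3 times, EGR4 had its lowest mean at 120 minutes. In challenged diencephalon the mean was 13.5 cpm at 30 minutes, 12.1 cpm at 60 minutes and 7.98 cpm at 120 minutes. In control diencephalon it was 10.1, 10.2 and 6.52 cpm at those times. Challenged males at 120 minutes did not overlap those at 60 minutes in diencephalon, at 5.68 to 9.07 cpm against 9.98 to 14.5 cpm. Control males there did overlap, at 4.13 to 8.54 cpm against 7.52 to 13.4 cpm. How many of all genes lacked overlap between these times was not computed, so these ranges are a description only.

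Time differences were tested at 8 contrasts, without telencephalon at 30 minutes. The 120 minus 60 minute difference was -0.51 ± 0.18 on the log2 scale in challenged telencephalon, -0.76 ± 0.18 in control telencephalon, -0.60 ± 0.18 in challenged diencephalon and -0.65 ± 0.18 in control diencephalon. None passed after adjustment over all genes and the 8 contrasts, in which 0.0192% of results were called (edgeR quasi-likelihood test, adjusted p = 0.494, 0.177, 0.357 and 0.325). The 120 minus 30 minute difference in diencephalon was -0.76 ± 0.18 in challenged males and -0.64 ± 0.18 in control males (edgeR, adjusted p = 0.188 and 0.328). The 60 minus 30 minute difference there was near 0, at -0.16 and 0.01. DESeq2 called the 120 minus 30 minute difference in challenged diencephalon (adjusted p = 0.0328) and the 120 minus 60 minute difference in control telencephalon (adjusted p = 0.0312).

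Challenged and control males showed the same direction, and a contrast that averaged them was added after these values were seen. Its adjustment took in all genes and this contrast in both regions, and not the 8 contrasts above. Its calls are therefore a description and not independent evidence. EGR4 was then lower at 120 than at 60 minutes, with a log2 difference of -0.63 ± 0.13 in telencephalon (edgeR, adjusted p = 0.0516) and -0.62 ± 0.13 in diencephalon (edgeR, adjusted p = 0.0670). With 1 of the 20 fish of these times left out, the call held in telencephalon in 14 of 20 fits (adjusted p = 0.00927 to 0.166) and was lost without fish 9, 13, 21, 27, 28 or 32. In diencephalon it held in 9 of 20 (adjusted p = 0.0195 to 0.240) and was lost without fish 3, 7, 9, 15, 19, 20, 21, 25, 28, 32 or 36. In telencephalon 0.0342% of genes were called lower in that contrast and in diencephalon 0.0228%. fos was called lower in both regions, at -0.61 ± 0.13 in telencephalon and -0.74 ± 0.13 in diencephalon. nr4a1, at -1.17 ± 0.24, and egr2b, at -1.45 ± 0.24, were called lower in telencephalon, and jund in both regions.

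In the single contrasts, 5 of the 19 immediate-early genes were lower at 120 than at 60 minutes at an unadjusted p under 0.05 in challenged telencephalon, 7 in control telencephalon, 5 in challenged diencephalon and 8 in control diencephalon, with 0 higher in any. Over all genes the lower share was 4.73% in challenged telencephalon, 5.41% in control telencephalon, 2.1% in challenged diencephalon and 4.78% in control diencephalon. The higher share was 4.71%, 6.31%, 4.31% and 1.6% in the same order. Among the upstream factors 1 of 8 was on the lower side in challenged males and 0 of 8 in control males, in either region.

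**Figure D3:**
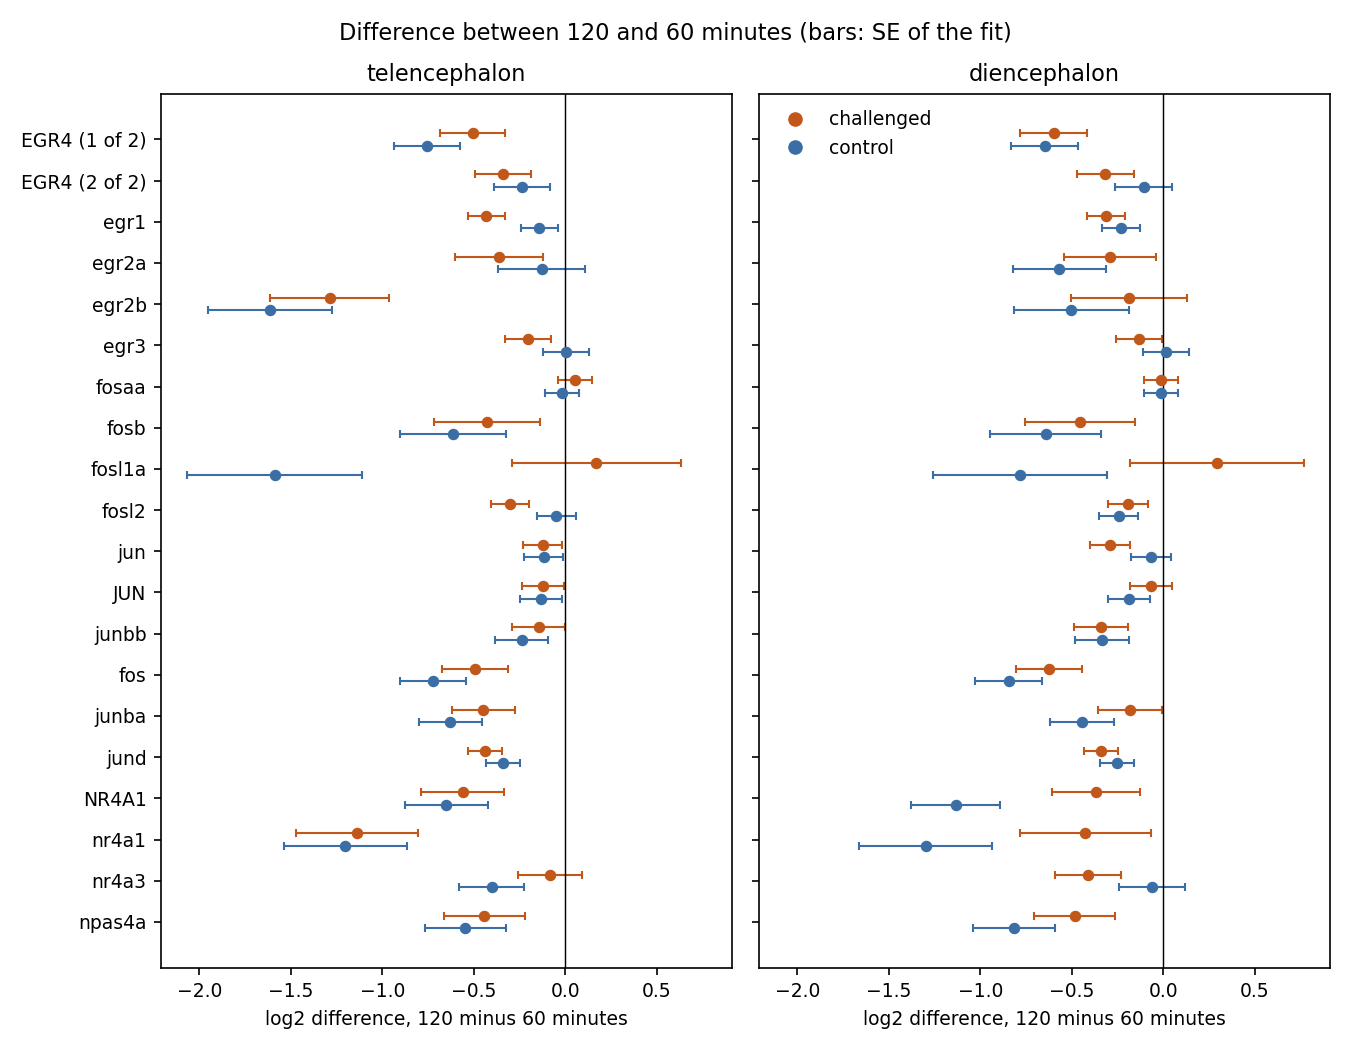
Log2 difference of 120 minus 60 minutes (horizontal axis) for EGR4 (1 of 2) and the 19 other genes drawn for the challenge folds. Telencephalon is on the left and diencephalon on the right. Orange points are challenged and blue points control males, with bars for the SE of the fit. EGR4 lies between -0.76 and -0.51 in the 4 groups of males, beside fos and npas4a, while fosaa and egr3 sit near 0.

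Once each group's mean had been taken off, the fish within a group still differed in EGR4. Its biological coefficient of variation was 19.4%, against a median of 12.8% among 3016 genes of like level, 75.6% of which varied less. Every gene with a mean of at least 1 cpm was then correlated with EGR4 over the 60 libraries on log2 cpm. Both libraries of a fish were moved together in 100000 permutations within groups. Of 16927 genes, 32 were positively and 6 negatively correlated at an adjusted p under 0.1, and 0.224% were called in all. The median size of r was 0.112.

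In the ranking over both regions together, npas4a was the gene most like EGR4 among all those tested. It had r = 0.695 and rho = 0.653 over 60 libraries of 30 fish (permutation p = 1e-05 for each, the smallest possible; adjusted p = 0.0242). fos ranked 2, with r = 0.647 and rho = 0.621, and egr1 ranked 7, with r = 0.588 and rho = 0.643 (permutation p = 1e-05 for each, the smallest possible; adjusted p = 0.0242 for both). EGR4 (2 of 2) ranked 14, at r = 0.542 and rho = 0.583 (permutation p = 0.00038 and 0.00016; adjusted p = 0.113), and did not pass. npas4a and fos have a name here only through tables of genes that differed. The names of egr1 and EGR4 (2 of 2) come from the table of transcription factors, which the paper predicted from its own expression data. EGR4 (2 of 2) is, however, also among the genes that the study listed as different.

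Without the 2 libraries farthest from the EGR4 median, r was 0.628 for npas4a, 0.591 for fos, 0.568 for egr1 and 0.615 for EGR4 (2 of 2). With each region taken alone, 0 genes passed in telencephalon and 9 in diencephalon. Over the 16650 genes tested in telencephalon, a single gene at the smallest possible permutation p of 1e-05 cannot pass. The 0 is therefore limited by the number of permutations and does not show that no gene follows EGR4 there. In telencephalon r was 0.698 for npas4a, 0.698 for fos and 0.675 for egr1, and in diencephalon 0.695, 0.610 and 0.558. The highest r in each region alone belonged to a gene with no name, at 0.720 in telencephalon and 0.812 in diencephalon. Within the 12 single groups of 5 fish, r was above 0 in 11 for npas4a, 10 for fos, 11 for egr1 and 12 for EGR4 (2 of 2). The r over all libraries already had group means taken off, so these counts restate it and are not a separate check. The same counts were not taken over all genes. With the library index also taken off, r was 0.668 for npas4a, 0.626 for fos, 0.535 for egr1 and 0.316 for EGR4 (2 of 2). A gene with no name was then highest, at 0.679.

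Single fish, chosen after their values were seen, show both likeness and its absence. In challenged telencephalon at 120 minutes, fish 29 had the highest level of each, with 24.1 cpm of EGR4, 48.7 cpm of npas4a, 28.5 cpm of fos and 117 cpm of egr1. The other 4 fish of that group had 13.2 to 17.3 cpm of EGR4 and 21.4 to 35.2 cpm of npas4a. In challenged telencephalon at 60 minutes, fish 4 had the lowest level of all 4 genes, at 18.6 cpm of EGR4, 33.7 cpm of npas4a, 18.4 cpm of fos and 82.7 cpm of egr1. Other fish ran against the relation. In control telencephalon at 60 minutes, fish 35 had the highest level of EGR4, 30.0 cpm, and the lowest of npas4a and fos, 25.1 and 22.8 cpm. In challenged diencephalon at 30 minutes, fish 38 had the highest level of EGR4, 18.2 cpm, and only fish 34 had less npas4a and fos than its 26.8 and 20.4 cpm.

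**Figure D4:**
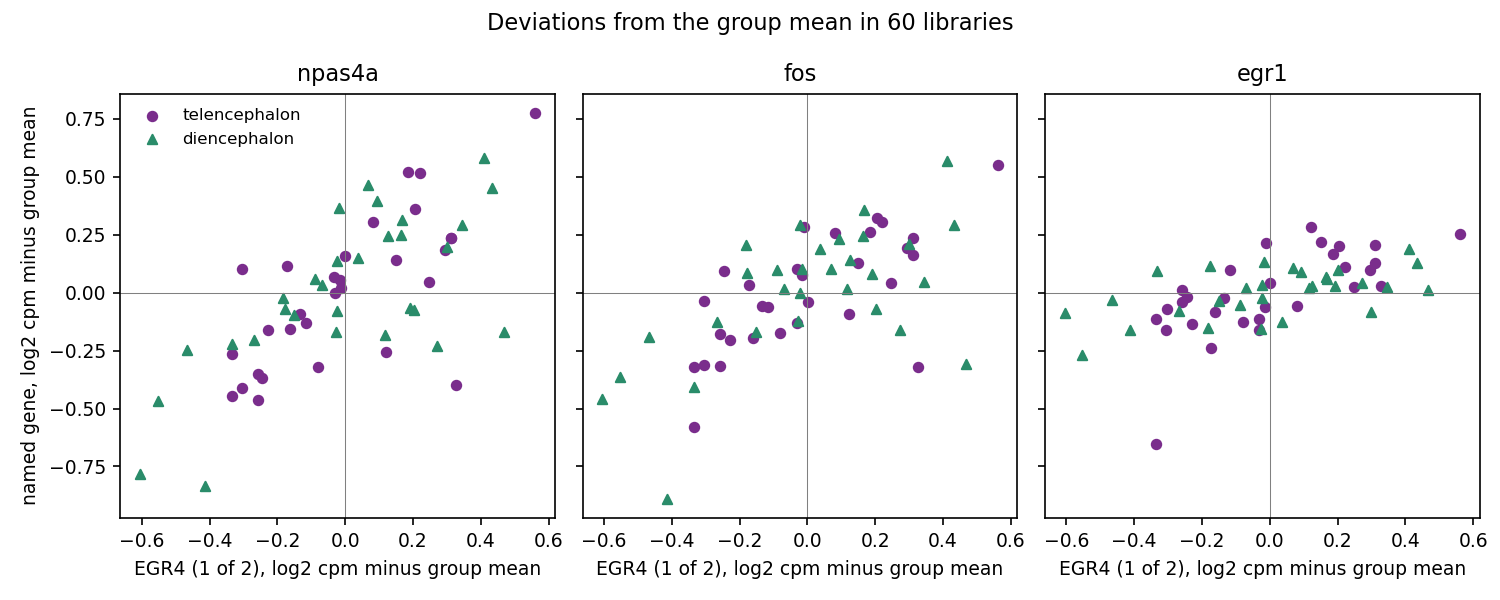
Deviation of npas4a, fos and egr1 (vertical axes) against that of EGR4 (1 of 2) (horizontal axis), each as log2 cpm minus the group mean, in 60 libraries. Purple circles are telencephalon and green triangles diencephalon. The points run from lower left to upper right in both regions, with r of 0.695 for npas4a, 0.647 for fos and 0.588 for egr1.

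Among the other immediate-early genes the relation was graded. egr2a (r = 0.479, permutation test, adjusted p = 0.0819) was called, and junbb (0.459), egr2b (0.411) and NR4A1 (0.404) were not. With the library index taken off, r fell to 0.257 for egr2a, 0.173 for junbb, 0.243 for egr2b and 0.326 for NR4A1. egr3 had r = 0.174 and nr4a1 r = 0.217. NFIL3 ran the other way, at r = -0.382. Of the upstream factors, srfb had r = -0.0962, elk4 0.0996 and CREB1 -0.112, and none of the 8 was called. The other 21 of the 25 highest genes and all 10 of the lowest carry no name in the tables used. The highest of them were ENSGACG00000013618 (r = 0.60) and ENSGACG00000012787 (r = 0.597), and the lowest were ENSGACG00000011717 (r = -0.561) and ENSGACG00000009904 (r = -0.558).

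The list of followers itself depended on the fish. The count of 38 became 2 without the fish at 30 minutes and 12 with the library index taken off. Leaving out 1 fish gave 9, without fish 29, to 107, without fish 21. Low counts are also limited by the number of permutations, since a single gene at the smallest possible permutation p cannot pass. The 25 genes ranked highest in telencephalon alone had a median r of 0.659 there and 0.195 in diencephalon, where 19 of 25 were above 0 and the median of all genes was 0.00. The 25 ranked highest in diencephalon had a median r of 0.255 in telencephalon, again with 19 above 0. EGR4 deviations had r = 0.0499 with the log2 library total, -0.315 with the summed pituitary genes, -0.248 with the summed telencephalon markers and 0.000759 with the summed microglia markers, and their part in the followers was not tested.

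Within a fish, EGR4 showed no detectable relation between the regions. The deviations in telencephalon and diencephalon had r = -0.0420 (permutation p = 0.837) and rho = -0.119 (permutation p = 0.561) over 30 fish. Without fish 32 and 34, the 2 farthest from the median in diencephalon, r was -0.340 (permutation p = 0.115). Both were below their group mean in both regions, and the 2 farthest in telencephalon were not left out together. For most genes r was higher, with a median of 0.528 over 16928 genes, and EGR4 stood at percentile 3.80. npas4a had r = 0.588, fos 0.345, egr1 0.229 and EGR4 (2 of 2) 0.176. egr3 (-0.149) and fosl2 (-0.206) were below EGR4, and junbb (-0.0250) and nr4a3 (-0.0323) were close to it. The other immediate-early genes with a value ran from 0.0479 (klf4) to 0.913 (cebpb). Of the upstream factors, mef2aa (-0.138) and mef2cb (-0.121) were below EGR4 and the others above it.

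**Figure D5:**
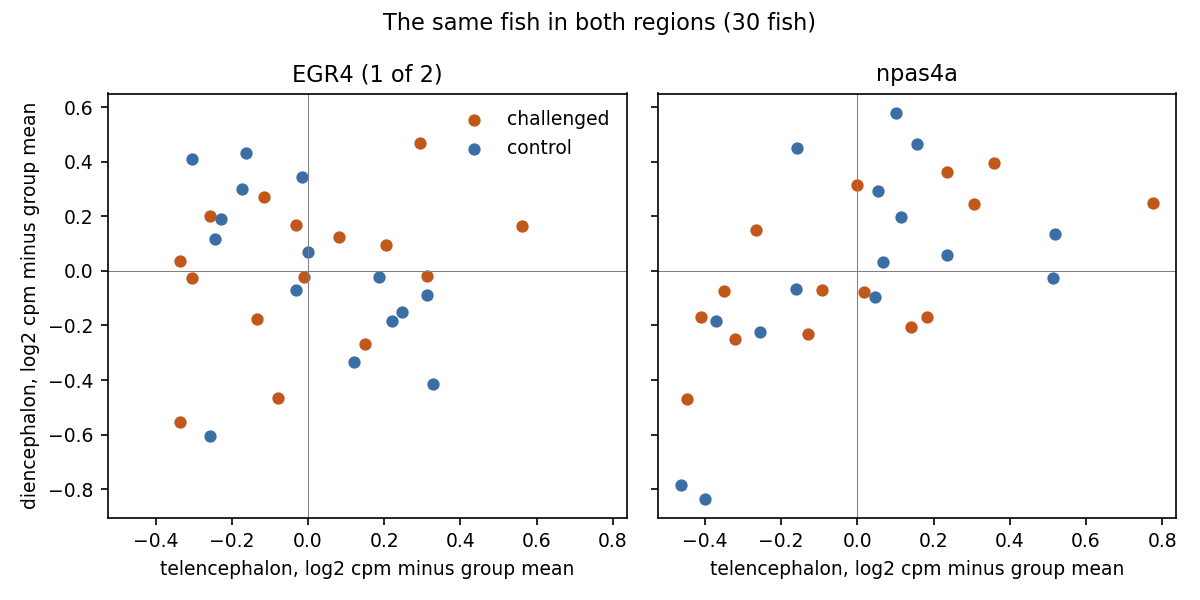
Deviation in diencephalon (vertical axis) against deviation in telencephalon (horizontal axis) of the same fish, as log2 cpm minus the group mean, for EGR4 (1 of 2) on the left and npas4a on the right. Each point is 1 of 30 fish, orange for challenged and blue for control. EGR4 shows no common direction (r = -0.0420), whereas npas4a runs upward (r = 0.588).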

How the data were processed

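RNA-seq libraries were made from telencephalon and diencephalon of 30 males with a directional poly-A kit. After trimming, the authors mapped single-end reads with TopHat (2.0.8) onto the stickleback assembly with repeats masked, tallied them by HTSeq (0.6.1) over the gene models of Ensembl release 75, and deposited raw counts, which were used here. The genome build in the submitters' processing notes is a mouse name and was not used. A deposited table of cpm was not used. EGR4 and the gene lists were chosen with earlier results of these data known.

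Counts were analysed in edgeR (4.0.16, R 4.3.3) with TMM scaling, a minimum of 1 cpm in 2 libraries for each gene and the quasi-likelihood test. Challenge was nested in time within each region, Benjamini-Hochberg adjustment took in the 6 comparisons together, and the threshold was 0.1. Region and time contrasts came from 1 fit of 12 groups. Library depth was 17705327 to 55299804 counts, median 30159569. In counts simulated for 17247 genes, 88% of 200 genes changed 2-fold in telencephalon at 30 minutes were called. Another 7 unchanged genes were called at that time, and 9 calls fell at the other times. The 200 were drawn from genes above a minimum level, and genes varied independently of one another. No other effect of treatment, time or fish was put in, and the adjusted p depends on how many changes were put in. The 88% is therefore not the chance of calling EGR4 in the real data. Correlations used log2 cpm (prior count 2) less group means.

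Telencephalon and diencephalon libraries are paired by fish, as the labels' fish numbers give. The median gene had r = 0.528 between the regions of a fish. Challenged and control males are different fish and each is a separate animal. Named genes were EGR4, all list members and the 25 genes of highest and 10 of lowest r, of which unnamed ones were counted with at most 2 printed each way. Names came from the study's tables for 1778 genes, and 0 identifiers matched the RefSeq table. Alternatives covered the test, scaling, filters, library index, pairing and leaving out each fish. DESeq2 (1.42.0) was one of them. Figures were drawn with matplotlib (3.10.9).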

Additional observations from a re-analysis of the deposited data

Results flagged for a closer look

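Among the 48 groups of 5 libraries looked at for EGR4 (1 of 2), npas4a, fos and egr1, 2 held a library far from the other 4, where chance gives about 1 in 20, or 2.4 groups. Both were for egr1. In challenged diencephalon at 30 minutes, fish 34 had 67.0 cpm, against 81.4 to 87.3 cpm in the other 4. In challenged telencephalon at 60 minutes, fish 4 had 82.7 cpm, against 139 to 151 cpm in the other 4. No group of EGR4 (1 of 2) held such a library.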

How the results depend on the processing

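The fold of EGR4 at 30 minutes in telencephalon was 0.84 to 0.88 under the 7 other settings and 0.80 to 0.95 with 1 fish left out. The gene was chosen on that comparison, so these ranges describe the value and are no independent check of it. Of the 5 tested challenge contrasts none passed under any setting. The telencephalon fold at 60 minutes changed sign with 1 fish left out, over -0.13 to 0.042. With 1 fish left out, the diencephalon folds were 0.29 to 0.54 at 30 minutes, 0.16 to 0.36 at 60 minutes and 0.17 to 0.41 at 120 minutes, and with the library index in the model they were 0.31, 0.074 and 0.21. The count of genes called over the 6 comparisons was 35 by the likelihood ratio test, 256 by DESeq2 and 0 with any fish left out. Region held throughout, at 1.07 to 1.15 with 1 fish left out, and a fit with fish as replicate block gave 1.11 (adjusted p = 9.09e-12). Under the likelihood ratio test the 120 minus 30 minute difference in challenged diencephalon was -0.76 (adjusted p = 0.0656) and the 120 minus 60 minute difference in control telencephalon -0.76 (adjusted p = 0.0568), and DESeq2 gave -0.77 and -0.76. With challenged and control averaged, 120 minus 60 minutes was -0.63 in telencephalon and -0.62 in diencephalon, and -0.72 to -0.59 and -0.69 to -0.56 with 1 fish left out. The 60 minus 30 minute difference in control diencephalon, near 0, was -0.0054 with the library index in the model and -0.10 to 0.093 with 1 fish left out. The correlation of EGR4 between regions was 0.0691 with the index taken off and -0.18 to 0.046 with 1 fish left out. The count of followers was 25 with cpm by total count, 2 without the fish at 30 minutes, 12 with the index taken off, 0 in telencephalon alone, 9 in diencephalon alone and 9 to 107 with 1 fish left out. The cause of these changes was not tested. For followers, a single gene at the smallest possible permutation p cannot pass, which also limits the low counts. No paired analysis was possible for challenge because the methods speak of a paired control male but the labels do not say which, nor for time because those groups share no fish. Counting error for EGR4 was 9.02% at the lowest count, beside a biological coefficient of variation of 19.4%.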

Other observations

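After the plot of both regions was seen, the correlation of EGR4 between the regions of a fish was taken in challenged and control males apart. It was 0.361 in 15 challenged males (rho = 0.325, permutation p = 0.217) and -0.469 in 15 control males (rho = -0.504, permutation p = 0.10). The difference of 0.830 had a permutation p of 0.0383, and 0.192 after adjustment over the 5 genes looked at in this way, so it did not pass. For npas4a r was 0.645 in challenged males and 0.583 in control males (permutation p of the difference = 0.763). For egr1 r was 0.453 in challenged males and -0.157 in control males (permutation p of the difference = 0.0913, adjusted 0.228).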
